A study of Mus musculus with 4 samples.

Results

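The genes of the cytosolic ribosome were followed in a map of H3K9ac, histone H3 acetylated at lysine 9, a mark of active promoters. The members were the protein-coding genes whose symbol is Rpl or Rps followed by a number, with at most one suffix letter (a, l, x or y), together with Rplp0, Rplp1, Rplp2 and Rpsa. The S6 kinase genes do not match this rule. It found 81 of 21887 protein-coding genes, 50 with an Rpl symbol and 31 with an Rps symbol. Each member was described by the peaks that overlapped its annotated span plus 1 kb on either side.

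The cells were mouse bone marrow-derived MDSC (myeloid-derived suppressor cells, immature myeloid cells that restrain T cells), and the series describes them as made senescent in vitro. One library came from cells under CM, a condition whose abbreviation the labels do not expand, and one from cells under CM with romidepsin, an inhibitor of histone deacetylases. Strain, age, sex, dose and time of treatment are not given in the sources used here, and the 2 input libraries were not analysed here. With 1 immunoprecipitated library per condition there was no test between conditions, no value has a replicate error, and read depth is unknown, although a deeper library gives more and wider peaks.

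The ribosome consists of a small subunit, which decodes the messenger RNA, and a large subunit, which joins amino acids. In mammals each of its proteins is encoded mostly by 1 active gene, scattered over the chromosomes, beside many processed pseudogenes, which are copies of the messenger RNA inserted elsewhere. Ribosomal protein genes are transcribed at high rates in nearly all cells. Their messenger RNAs commonly begin with a terminal oligopyrimidine tract, a C followed by a run of C and T, through which mTOR signalling controls their translation.

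The promoters of 5 members are shown because they span the range of the acetylation data: Rps27 and Rps9 lay wholly under a CM peak, Rps19 had the second longest CM peak of the members, Rps4x had no CM peak, and Rpl10l had no peak in either list. Each stretch runs 5′ to 3′ from 80 bases before to 20 bases after the annotated start, in RefSeq for GRCm38.p6, which shares its coordinates with mm10. Capitals mark a pyrimidine tract, here a run of at least 5 bases of C and T that opens with C, where it begins within 5 bases of that start. They also mark every match, on either strand, to the TATA box TATAAA, the ETS core CCGGAAG, the SP1 box GGGCGG, the E-box CACGTG, the YY1 core AAGATGGCG, the CCAAT box, the ZBTB33 palindrome's centre CTCGCGAG and the NRF1 palindrome's centre CGCATGCG.
Rps27, chr3:90213629-90213728, minus strand: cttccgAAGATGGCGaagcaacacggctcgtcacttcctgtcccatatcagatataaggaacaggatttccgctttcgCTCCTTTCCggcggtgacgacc
Rps9, chr7:3703961-3704060, plus strand: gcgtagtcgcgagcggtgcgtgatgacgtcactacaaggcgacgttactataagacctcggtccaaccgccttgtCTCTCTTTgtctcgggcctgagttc
Rps19, chr7:24884512-24884611, plus strand: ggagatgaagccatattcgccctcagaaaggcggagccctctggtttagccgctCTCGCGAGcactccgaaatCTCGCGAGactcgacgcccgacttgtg
Rps4x, chrX:102189372-102189471, minus strand: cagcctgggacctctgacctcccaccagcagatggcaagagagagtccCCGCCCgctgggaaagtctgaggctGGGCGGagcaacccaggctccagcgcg
Rpl10l, chr12:66284382-66284481, minus strand: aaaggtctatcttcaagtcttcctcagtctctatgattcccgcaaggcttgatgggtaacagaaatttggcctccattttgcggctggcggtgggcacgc
The tract of Rps27 is 9 bases long and that of Rps9 is 8. Rps27 also carries the YY1 core, Rps19 carries the ZBTB33 centre at 2 places, Rps4x carries the SP1 box at 2 places, and Rpl10l has none of these letters in this stretch.

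Nearly every ribosomal protein gene carried H3K9ac already under CM. In the CM list 77 of the 81 members (95.1%) had a peak, against 53.6% of all protein-coding genes. With romidepsin 78 of 81 (96.3%) had one, against 68.3% of all genes. Rps4x alone had a peak with romidepsin and none in CM, no member had the reverse, and Rpl10l, Rpl32l and Rpl39l had none in either list. Large subunit genes had a peak at 47 of 50 in both lists, and small subunit genes at 30 of 31 in CM and 31 of 31 with romidepsin. Because the members were near the ceiling in CM, presence of a peak left little room for a difference between the lists. In bulk chromatin, a mark in fewer cells and less of the mark per cell cannot be told apart.

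The CM mark on these genes was a compact block, and the romidepsin mark a domain several times as long. Over members with a peak, the longest peak had a median length of 2054 bp in CM (interquartile range 1641 to 2426) and 7970.5 bp with romidepsin (6007.5 to 10457). Over all protein-coding genes with a peak the medians were 1606 and 4872 bp. The order with romidepsin rests on the measure: the covered bases of the window had a median of 4876.5 bp in members and 5832 bp over all genes. When peaks closer than 1 kb were merged, the romidepsin medians were 12991 and 7429 bp, and the ratios 6.06 and 5.20. The ratio of the lengths, romidepsin over CM, had a median of 3.93 over the 77 members with both (interquartile range 3.14 to 5.95). Over all genes the median ratio was 3.61, and over all genes under 10 kb it was 3.88, near that of the members. The ratio was above 1 at all 77 members, which also held for 99.9% of all genes with both peaks. At 74 of the 77 (96.1%) the CM peak lay inside the romidepsin peak, which then could not be the shorter one, against 83.4% of all genes with both. At the other 3, Rpl24, Rpl27 and Rpl36a, the longest peaks of the lists lay at different places, and the ratio does not describe a widening. Over the 74 the median ratio was 3.84, against 3.49 over the 9783 such genes of any kind. Whether depth or treatment sets the longer peaks cannot be told apart with 1 library each.

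**Figure D1:**
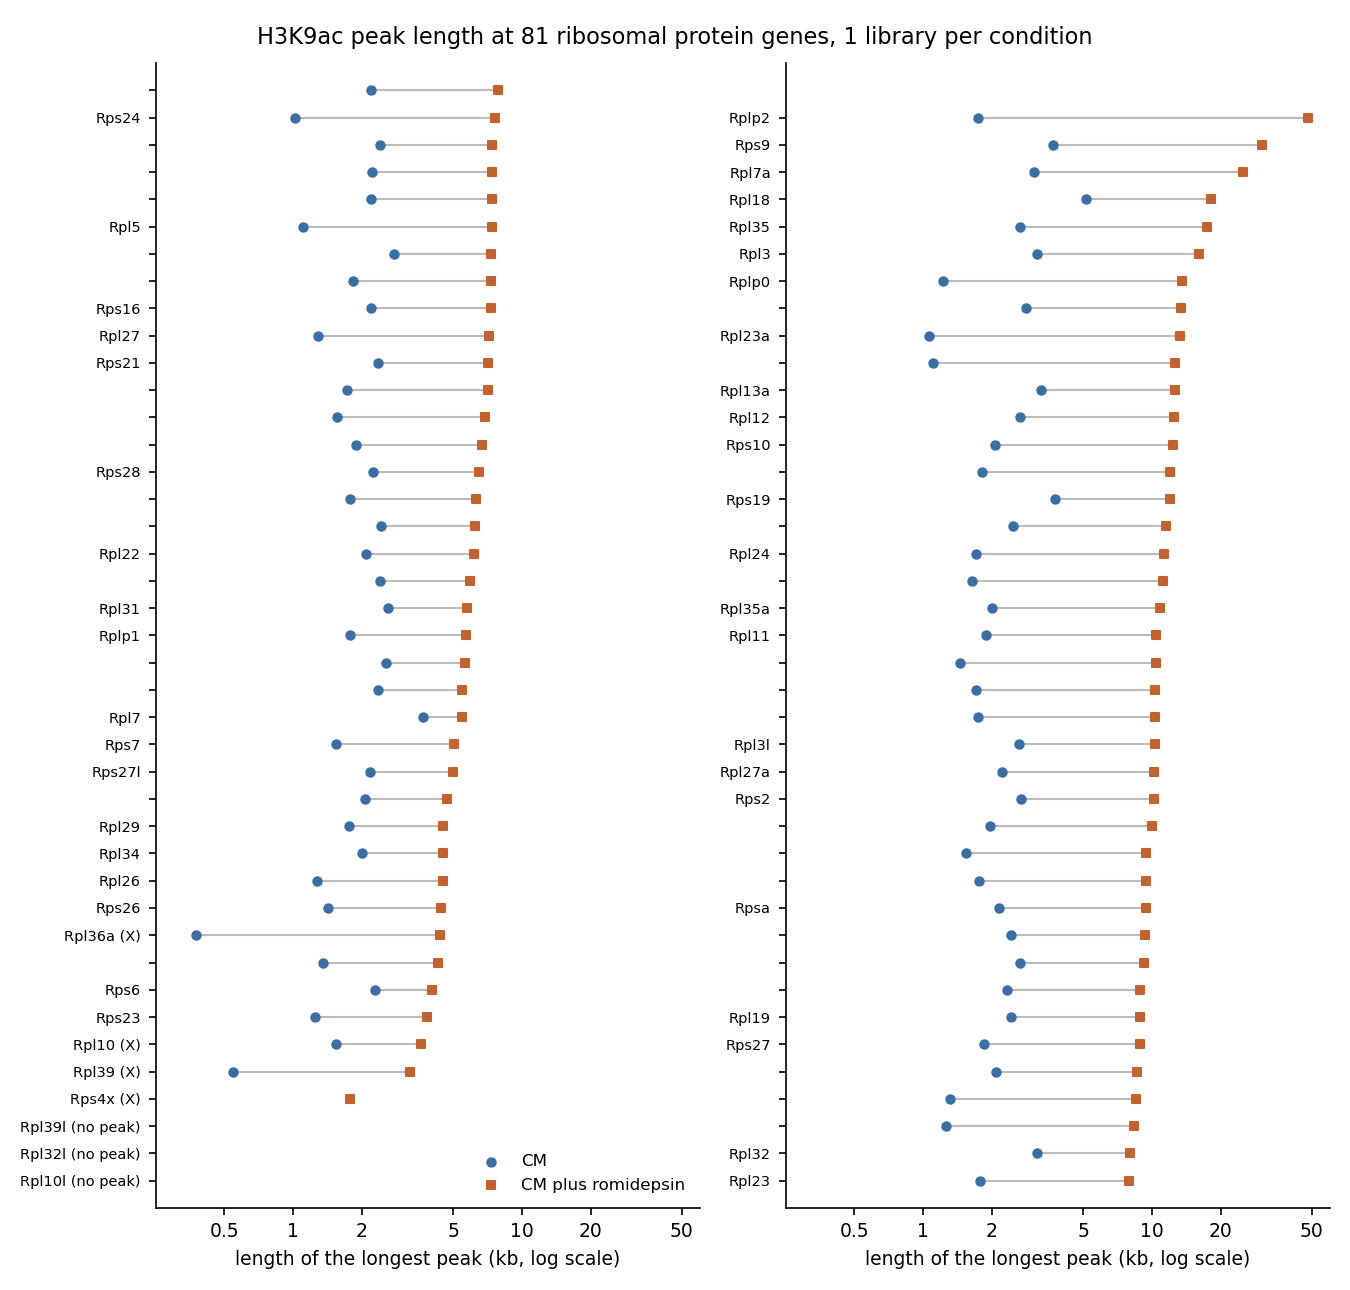
Length of the longest H3K9ac peak at each of the 81 ribosomal protein genes, in kb on a log scale, in CM (circles) and in CM plus romidepsin (squares), ordered by the romidepsin length, with 1 library per condition; (X) marks chromosome X and names are given for members described in the text. The squares lie to the right of the circles at all 77 genes with both, and Rpl39l, Rpl32l and Rpl10l have neither.

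Among large subunit genes, Rpl18 had the longest CM peak of all members at 5128 bp, a peak that also met Sphk2. Its romidepsin peak of 18143 bp also met Car11, Dbp, Sphk2 and Fam83e. Rpl7a, in the Surfeit cluster of unrelated housekeeping genes, had 3048 bp in CM, a peak shared with Med22. With romidepsin it had 24977 bp, a peak shared with Surf6, Med22, Surf1, Surf2 and Surf4. Rpl35 had 2644 and 17505 bp, with Wdr38 and Arpc5l under the longer peak. These were 3 of the 5 longest romidepsin peaks among the members, and each joined CM peaks of the neighbourhood: 2 at Rpl18, 3 at Rpl7a and 3 at Rpl35.

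Rpl23a, whose protein lies beside the exit of the nascent chain, had one of the shortest CM peaks (1058 bp) and a romidepsin peak of 13280 bp, a ratio of 12.6. Rpl7 showed the least widening, from 3678 bp to 5479 bp, a ratio of 1.49, and both peaks also met Rdh10. Rpl31 (2592 and 5768 bp, ratio 2.23) and Rpl34 (1999 and 4523 bp, ratio 2.26) were also near the lower end. Of the 74 members whose CM peak lay inside the romidepsin peak, 24 had a ratio of 5 or more (32.4%, against 25.5% of such genes) and 4 had 10 or more (5.41%, against 5.39%). The shares at 10 or more were near the same. Rpl13a had one of the longest CM peaks, 3291 bp.

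The stalk proteins, which recruit elongation factors to the large subunit, are encoded by Rplp0, Rplp1 and Rplp2. Rplp2 had the longest romidepsin peak of all members: 48130 bp (chromosome 7, 141430546 to 141478675), against 1730 bp in CM. That ratio, 27.8, was the highest of the members. The romidepsin peak joined 7 CM peaks and met Slc25a22, Pidd1, Pnpla2, Cracr2b, Cd151, Polr2l and Tspan4, of which Pidd1 also met the CM peak. Rplp0 went from 1226 to 13502 bp (ratio 11.0), with Pxn and Gcn1 under the longer peak. Rplp1 went from 1776 to 5721 bp and met no other gene in either list.

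Among small subunit genes, Rps9, whose protein helps form the entry of the messenger RNA channel, had the longest romidepsin peak, 30442 bp (chromosome 7, 3690631 to 3721072). Its CM peak was 3686 bp, and the romidepsin peak joined 6 CM peaks and met Mboat7, Tsen34 and Pirb. Rps19 had 3773 bp in CM and 11999 bp with romidepsin and met no other gene in either list. Rps6, the substrate of the S6 kinases, went from 2286 to 4060 bp (ratio 1.78). Rps23, which acts in decoding, had one of the 5 shortest romidepsin peaks, 3846 bp, from 1250 bp in CM. Rpsa, which encodes a small subunit protein also known as the laminin receptor precursor, had 2136 and 9386 bp.

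Diamond-Blackfan anaemia is a failure of red cell production, and 10 members listed as mutated in it were compared. Their longest peaks ranged from 1017 to 3773 bp in CM and from 4450 to 12332 bp with romidepsin. The list is partial, and the ranges are of these 10 only. All 10 on the list had a peak in both lists, as had 95.1% of all members in CM and 96.3% with romidepsin. Over all genes these shares were 53.6% and 68.3%. The 10 had a median of 1709 bp in CM and 7500 bp with romidepsin, against 2054 and 7970.5 bp over all members. Their median ratio was 4.49, against 3.93. Rps24 had 1017 and 7633 bp, and Rpl5 had 1107 and 7367 bp, both among the 5 shortest members in CM. Rpl5 and Rpl11 encode proteins that bind MDM2, the ubiquitin ligase of p53, when ribosome assembly is disturbed, and Rpl23 encodes another. Rpl11 had 1884 and 10465 bp, and Rpl23 had 1776 and 7911 bp. Rps7 had 1534 and 5032 bp, Rps10 2054 and 12332 bp, Rps26 1418 and 4450 bp, Rpl26 1275 and 4510 bp, and Rpl35a 2004 and 10899 bp. The longest of the 10 in CM was at Rps19, and among all members, on the list or not, only Rpl18 had a longer one.

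Acetylation lay over the start and the first part of the gene. An annotated start with strand was at hand for 61 of the 81 members and for 17492 genes in all. A CM peak lay within 500 bp of the start at 55 of the 61 (90.2%), against 49.8% of all genes, and a romidepsin peak at 58 of 61 (95.1%), against 61.2%. The CM peak at the start reached a median of 549 bp upstream and 1362 bp downstream, against 466 and 1052 bp over all genes. It reached farther downstream than upstream at 51 of 55 members (92.7%), against 80.9% of all genes. With romidepsin the reach was 2668.5 bp upstream and 4956.5 bp downstream, against 1574 and 2693 bp, and was longer downstream at 50 of 58 (86.2%), against 72.0%.

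At most members with a CM peak at the start, that peak ended between 1 and 2 kb downstream, and 40% were covered at 1500 bp. At 1 kb downstream of the start 53 of the 55 members with a CM peak there (96.4%) were under a CM peak, and at 2 kb 5 (9.09%). Over the 8710 genes of any kind with a CM peak at the start, these shares were 54.5% and 14.8%. At the start itself 43 of the 55 (78.2%) were covered, against 87.0%. At the other 12 (21.8%, against 11.4% of the 8710) the CM peak began downstream of the annotated start, as at Rpl5 and Rps24. With romidepsin 90.9% of the 55 were covered at 3 kb downstream and 76.4% at 5 kb, against 63.2% and 46.3% of the 8710 genes.

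**Figure D2:**
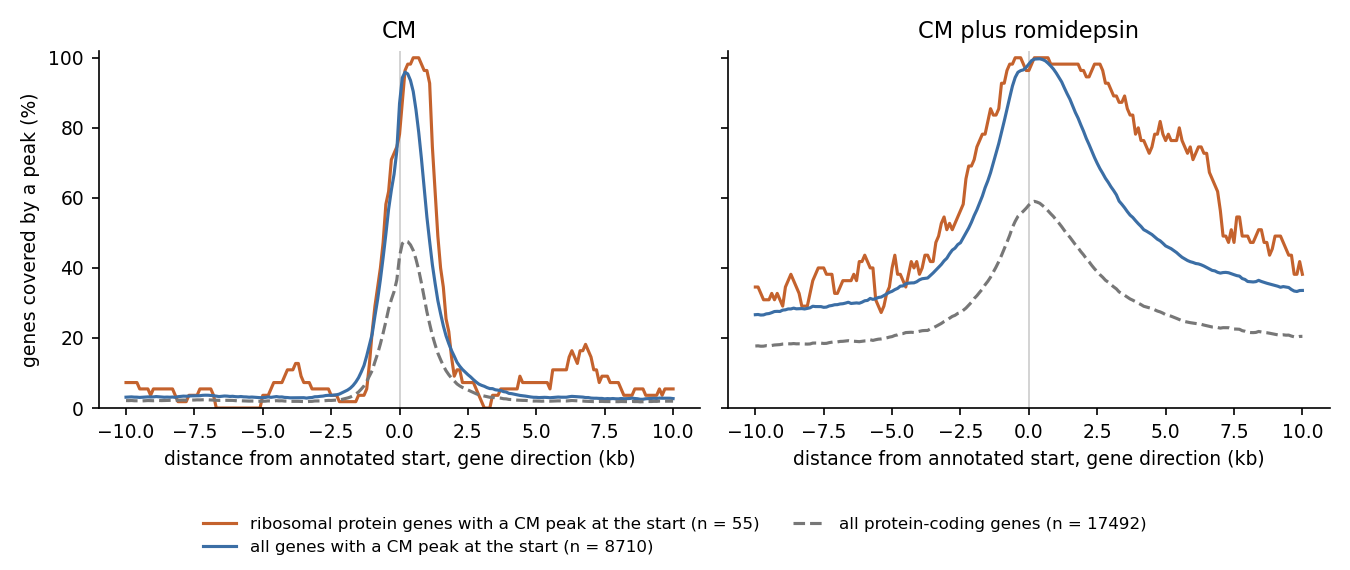
Share of genes covered by a peak at each distance from the annotated start, in kb in the direction of the gene, for 55 ribosomal protein genes and 8710 genes of any kind with a CM peak at the start, and all 17492 genes, in CM (left) and CM plus romidepsin (right). In CM the members drop from 96.4% at 1 kb to 9.09% at 2 kb downstream, and with romidepsin 76.4% are still covered at 5 kb.

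Members are short genes, with a median span of 3175 bp against 17169 bp over all genes, and the romidepsin domain commonly covered the whole of them. The annotated span lay inside a single peak at 3 members in CM, Rps9, Rps21 and Rps27, against 0.781% of all genes, and at 57 of 81 (70.4%) with romidepsin, against 5.56% of all genes. Among all genes under 10 kb the shares were 2.16% in CM and 14.3% with romidepsin. Rps27, at 982 bp, was inside a CM peak of 1850 bp and a romidepsin peak of 8838 bp. Rps21, at 1066 bp, was inside peaks of 2338 and 7147 bp. Gene span and romidepsin peak length had a Spearman rho of 0.24 over 78 members and of -0.06 over 14955 genes, values given as descriptions only.

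Under CM a median of 40.2% of the member's window of gene plus flanks was covered, and no member had its window covered throughout. With romidepsin the median was 100% and 42 members (51.9%) had the whole window covered, against 3.93% of all genes. Cover of the window depends on gene length. Among all genes under 10 kb with a peak, the median share covered was 22.8% in CM and 69.0% with romidepsin. The romidepsin mark fell into 2 or more peaks at 21 of 78 members (26.9%), against 72.6% of all genes with a peak, whose windows are longer. Rpl22 (9647 bp) had 1 CM peak of 2077 bp and 4 romidepsin peaks, of 6204 bp at the start and 976, 293 and 418 bp farther on. Rpl5 (8498 bp) and Rps24 (6283 bp) had 3 romidepsin peaks each.

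Domains over 10 kb were found at 27 of 81 members (33.3%) with romidepsin, against 13.0% of all genes. The longest romidepsin peak met another protein-coding gene at 43 of 78 members (55.1%), against 33.3% of all genes with a peak, and 3 or more others at 6 (7.69%), against 2.41%. In CM it did so at 19 of 77 (24.7%), near the 26.0% of all genes. Where a peak meets several genes, its length is not that of 1 gene's mark. Among the 29 members that host a snoRNA, a small RNA that guides modification of ribosomal RNA and is cut from an intron, the longest peak had a median of 1952 bp in CM and 9266 bp with romidepsin. Among the 52 other members it was 2054 and 7405 bp. In the annotation 35.8% of the members and 1.70% of all genes hosted one.

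Peak strength was even across the members. The fold enrichment, the authors' ratio of signal to background averaged over a broad peak, was compared within a list only, since the backgrounds of the lists differ. In CM the strongest peak of a member had a median fold of 6.03, with an interquartile range of 5.83 to 6.34, against 5.79 and 5.03 to 6.42 over all genes. With romidepsin the median was 3.98 (3.78 to 4.19), against 3.86 (3.48 to 4.16). Among the highest CM folds were those at Rpl19 (7.43), Rps9 (7.24), Rpl27a (7.005) and Rps24 (6.94). Among the highest romidepsin folds were those at Rpl27 (4.90), Rpl18 (4.70), Rps16 (4.64) and Rpl29 (4.56).

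Across the members as a whole, rank by fold within one list did not follow rank within the other. Rps24 had a CM fold of 6.94 and the lowest romidepsin fold of the autosomal members, 3.30. Rpl27 had 5.27 in CM and the highest romidepsin fold. Other members did go together: Rpl18 was high in both lists, at 6.79 in CM and 4.70 with romidepsin, and X-linked members with both peaks were low in both. Across the 77 members the Spearman rho between the folds of the lists was -0.05, against 0.33 over 11725 genes. For peak length it was 0.27 over the members and 0.66 over all genes. The members span a narrower range than all genes do, and the points within a list share 1 library.

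The 4 members on chromosome X were the weakest of the ribosomal protein genes, a pattern noticed after the values were seen. Rpl36a had a CM fold of 4.00, Rpl39, whose protein lines the exit tunnel, 4.40, and Rpl10, whose protein joins the large subunit late in its assembly, 4.88. The 74 autosomal members with a CM peak ranged from 4.94 to 8.09, so Rpl10 lay just below the lowest of them. Over all genes with a CM peak the ranges overlapped, at 3.41 to 5.83 on chromosome X and 2.34 to 10.3 on autosomes. Rps4x, the X-linked gene of a small subunit protein, had no CM peak, and the nearest one was 27.9 kb away at Ercc6l. With romidepsin the folds were 2.75 at Rpl39, 2.87 at Rpl36a, 2.99 at Rps4x and 3.31 at Rpl10, against 3.30 to 4.90 on autosomes, where 1 member, Rps24, lay below Rpl10.

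The peaks of these 4 genes were also short. In CM they were 375 bp at Rpl36a, 546 bp at Rpl39 and 1537 bp at Rpl10, and with romidepsin 4394, 3251 and 3631 bp, with 1771 bp at Rps4x. The peak of 4394 bp at Rpl36a ended upstream of the annotated start and met Btk, and the next peak of Rpl36a was 622 bp long. At Rps4x the strongest romidepsin peak ran from 391 bp upstream to 1379 bp downstream of the start (chromosome X, 102188012 to 102189782). The romidepsin list was also limited to as many of its strongest peaks as the CM list holds. Then 74 members (91.4%) kept a peak, against 54.5% of all genes, where the full list gave 96.3% and 68.3%. The 4 members that lost it were these X-linked genes. How many other X-linked genes lost their peak was not counted.

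Lower values were also found over chromosome X as a whole. Over all protein-coding genes with a peak, the median fold was 4.23 on chromosome X (265 genes) and 5.82 on autosomes (11459 genes) in CM, and 2.89 and 3.88 with romidepsin. A CM peak was present at 27.4% of X-linked genes and 55.5% of autosomal genes. Rpl10 was thus above the X median in CM and Rpl36a below it. CM peaks were also present on chromosome Y, at Eif2s3y (710 bp), Uty (759 bp) and Ddx3y (1324 bp). The number of X chromosomes per cell is not given in the sources used here, and its part in the lower values was not tested.

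**Figure D3:**
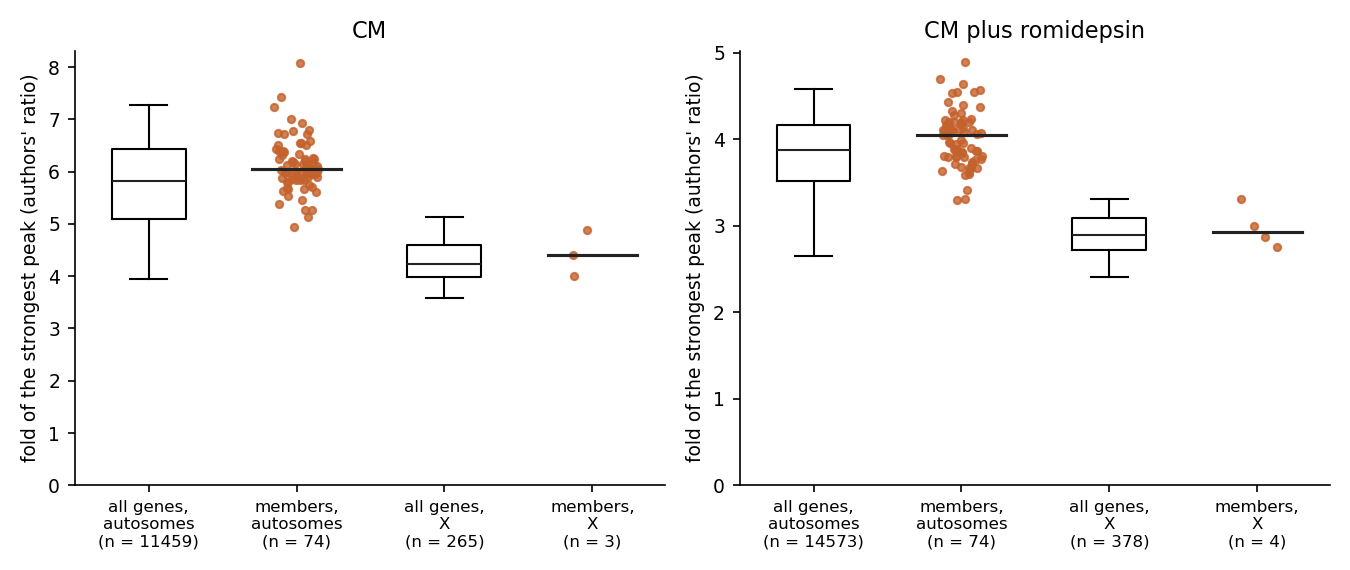
Fold of the strongest peak per gene, the authors' ratio, in CM (left) and CM plus romidepsin (right), for all genes (boxes: median and quartiles, whiskers at percentiles 5 and 95) and for the ribosomal protein genes (points, line at the median). The X-linked members, at 4.00 to 4.88 in CM, lie below all 74 autosomal members (from 4.94) and near the median of 4.23 for all X-linked genes. Over all genes with a CM peak, the folds on chromosome X (3.41 to 5.83) lie within the autosomal range (2.34 to 10.3).

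The 3 members with no peak in either list are paralogs or copies of broadly expressed members. Rpl10l, an intronless copy of Rpl10 used in the testis, had no peak in either list, and the nearest was 1109 kb away with romidepsin. Rpl39l, the testis paralog of Rpl39, also had none, with the nearest 237 kb away in CM and 111 kb with romidepsin. Rpl32l, a gene of 592 bp, had none, with a romidepsin peak 6.21 kb away in Map7. The partners Rpl10 and Rpl39 had peaks in both lists, as given above, and Rpl32 had 3157 and 8030 bp.

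Rpl3l, the paralog of Rpl3 in striated muscle, counts as having a CM peak only through a neighbour and its far end. Its longest CM peak, 2613 bp, began 8809 bp downstream of its start and lay at Msrb1, and the other was a peak of 332 bp with a fold of 3.72 at the gene's end. There was no CM peak within 500 bp of its start. With romidepsin 5 peaks met its window. The one at the start (10191 bp) is the domain over Rps2, Rnf151 and Ndufb10 and ended 17 bp past the start of Rpl3l. Peaks of 664, 556 and 308 bp inside the gene met no other gene. The longest, 10275 bp, also met Msrb1, as the longest CM peak did, so the length ratio of Rpl3l is shared with Msrb1. Rpl3 itself had 3157 bp in CM and 16016 bp with romidepsin. Rps27l, a paralog of Rps27 induced by p53, carried H3K9ac at its start in both lists, with 2172 bp in CM (fold 6.72) and 5019 bp with romidepsin. Its CM peak was longer than that of Rps27, 1850 bp.

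Ribosomal protein pseudogenes, which hold exon sequence without the parent promoter, mostly had no peak. In CM 6 of 324 had one (1.85%), against 2.25% of 10105 other pseudogenes, and with romidepsin 63 (19.4%), against 12.7%. Away from protein-coding genes the counts were 2 of 238 in CM and 35 of 238 with romidepsin, 0.84% and 14.7%, against 1.13% and 8.74% of other pseudogenes. The 2 with a CM peak were Rpl30-ps6 (978 bp, fold 4.36) and Rpl6l (288 bp, fold 3.99). Short reads from near-identical copies can be placed at either copy, and their part in these counts was not tested.

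Ribosome genes that the symbol rule leaves out all carried a peak. The 7 of them had one in both lists, against 53.6% of all genes in CM and 68.3% with romidepsin. Their longest peaks had a median of 2336 bp in CM and 14093 bp with romidepsin. Rps3a1 had 1089 and 4721 bp, Rpl36al 2998 and 8905 bp, Rpl22l1 1180 and 2811 bp, and Rpl7l1 1600 and 14093 bp. Fau, whose ribosomal protein is made as a fusion to a ubiquitin-like sequence, had 2336 and 29216 bp. Rack1, a signalling scaffold on the small subunit, had 3427 and 22373 bp. Of 30 genes for translation factors and ribosome assembly, 30 had a peak in both lists, with medians of 2170.5 and 8217.5 bp. Among them Eef1a1, the main elongation factor gene, had 2844 and 12412 bp. Ubtf, a factor of ribosomal RNA transcription, had 5092 and 13660 bp. Dkc1, on chromosome X, had 272 and 1062 bp.

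Other complexes made in nearly all cells were close to the ribosome in the presence of a peak and had shorter median lengths. In CM a peak was present at 78 of 78 mitochondrial ribosomal protein genes, 37 of 39 proteasome subunit genes and 77 of 84 respiratory chain genes. Over all genes the share was 53.6%. Median lengths in CM were 1448.5, 1584 and 1701 bp, and with romidepsin 4692.5, 5597.5 and 5066 bp, against 2054 and 7970.5 bp for the cytosolic ribosome. The median ratios were 3.54, 4.27 and 3.13, on both sides of the 3.93 of the members. With romidepsin the span lay inside 1 peak at 20.5%, 7.69% and 19.05% of these genes, whose median spans of 7690.5, 12293 and 7154 bp were longer than that of the members. The difference between the lists was not tested.

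**Figure D4:**
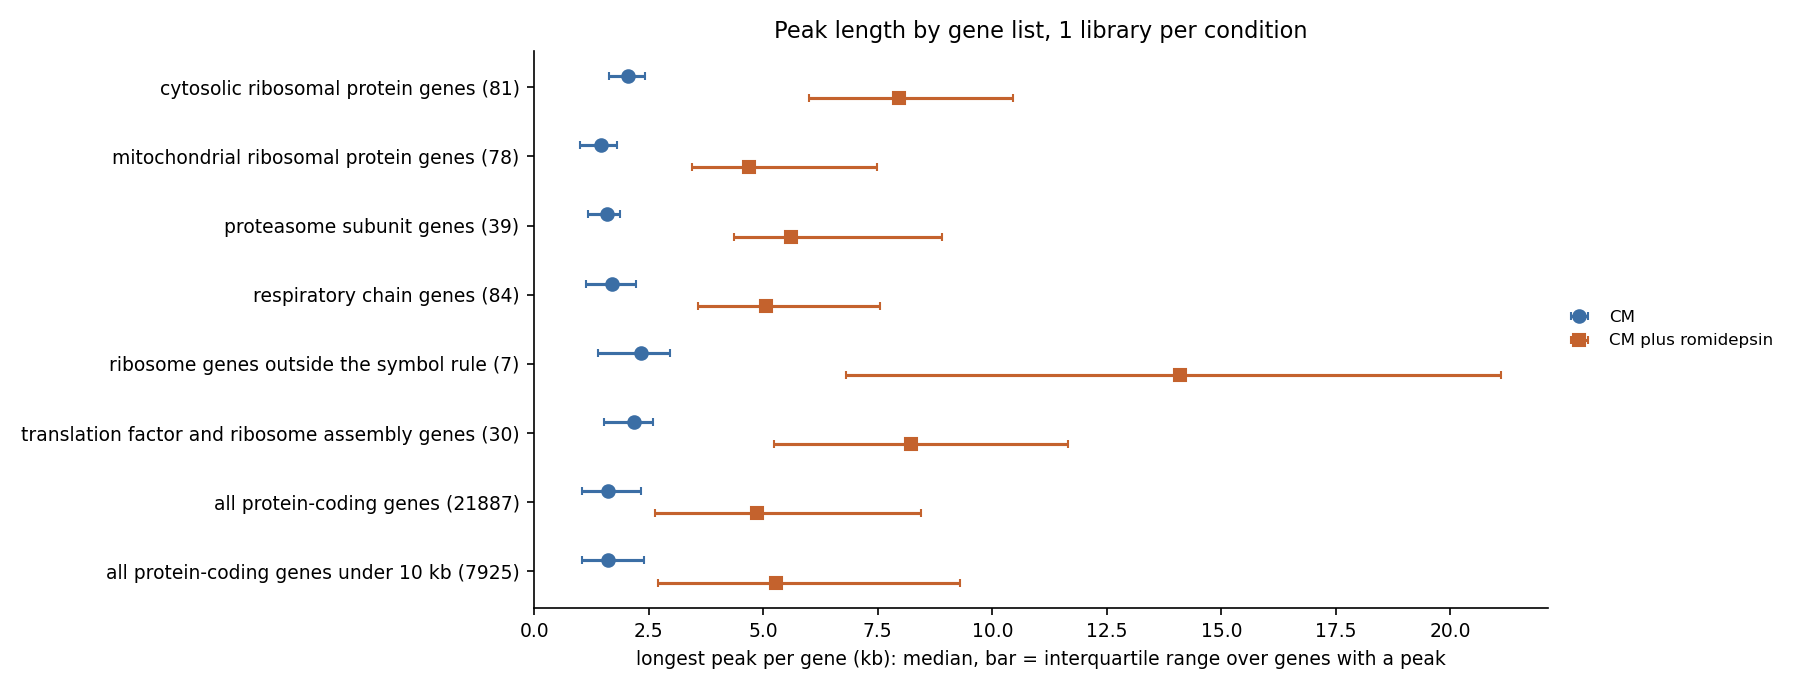
Median length of the longest peak per gene in kb, with bars for the interquartile range over genes with a peak, in CM (circles) and CM plus romidepsin (squares), by gene list with the number of genes listed. The cytosolic ribosomal protein genes have medians of 2054 bp and 7970.5 bp, below those of the ribosome genes outside the symbol rule (2336 and 14093 bp) and the translation factor and assembly genes (2170.5 and 8217.5 bp).

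Several short motifs were counted in the promoters of the members. In the 300 bases from 250 before to 50 after the start, the ETS core CCGGAAG was found in 24 of 61 members (39.3%), against 11.9% of 17492 promoters and 20.9% of the 8710 with a CM peak. The ZBTB33 centre CTCGCGAG was found in 6 (9.84%), against 1.31% and 2.24%: Rpl12, Rpl26, Rpl27a, Rps6, Rps19 and Rps28. A pyrimidine tract within 5 bases of the annotated start was found in 28 (45.9%), against 18.8% and 20.1%. Within 20 bases it was found in 49 (80.3%), against 49.9% and 49.1%.

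Other motifs were at shares between or near those of the comparison promoters, apart from CCAAT, which was below both. The SP1 box was found in 35 (57.4%), against 46.3% of all promoters and 68.2% of those with a CM peak. CCAAT was found in 19 (31.1%, against 39.2% and 39.3%), the E-box in 5 (8.20%, against 7.91% and 10.8%), TATAAA in 7 (11.5%, against 13.3% and 6.37%) and the NRF1 centre in 2 (3.28%, against 2.55% and 4.44%). The YY1 core AAGATGGCG was found in 3, Rpl13a, Rpl35a and Rps27 (4.92%, against 1.92% and 3.59%). Counts this small do not set the members apart. These counts are of exact matches on both strands, the tract excepted, which was read on the sense strand. They do not show binding. The median GC content was 57.0% in members and 56.3% in all promoters, and the ratio of observed to expected CpG was 0.86 and 0.58. In the 8710 promoters with a CM peak these medians were 61.7% and 0.80.

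The label of the cells was checked against marker genes over the same windows. A CM peak was present at 12 of 14 myeloid markers, the exceptions being S100a9 and Ly6g, and at all 14 with romidepsin. In CM 1 of 6 lymphocyte markers (Cd4), 2 of 4 erythroid and megakaryocyte markers (Klf1 and Itga2b), 1 of 4 stromal and endothelial markers (Pecam1) and 0 of 4 markers of other tissues had one. With romidepsin these counts were 3, 2, 4 and 2, so that all 4 stromal and endothelial markers had a peak as well. Over all genes 53.6% had a peak in CM and 68.3% with romidepsin. The CM list held 16419 peaks and the romidepsin list 103336, so a peak at any gene is more common in the latter.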

How the data were processed

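H3K9ac ChIP-seq peak lists of 2 immunoprecipitated libraries were used. Per the submitters' processing notes, Bowtie2 2.4.4, MACS2 2.2.7.1 and deepTools 3.5.1 were run with build mm10. Settings, read filters and any use of the input are not given in the sources used here. Every deposited list holds the broad peaks of 1 library. The authors' peak caller gave a position, a score and a fold enrichment (a ratio to background) for each peak. The deposited columns also hold −log10 p and −log10 q. They were used to describe, rank or filter peaks within a list. No replicate exists and depth is unknown.

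Genes, spans and starts came from RefSeq tables of GRCm38.p6. Of the 81 members 61 had a start, and the start nearest the gene's outer end was used. A peak counted from 1 bp of overlap with the span plus 1 kb. The longest peak gave the length and the strongest the fold. Calculations used Python 3.11.15, numpy 2.4.6 and pandas 2.3.3, and were tested on simulated data. The members and lists were chosen with earlier results of these data known. Genes were named for lacking a peak, for their role, for extreme length, ratio or fold, or as neighbours sharing a peak. Rpl22, Rpl24, Rpl32, chromosome Y genes and some translation genes were named after their values were seen. A few members and related genes are not reported by name here. Alternatives covered peak thresholds, merging, windows, overlap and members.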

Additional observations from a re-analysis of the deposited data

How the results depend on the processing

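Of 110 values recomputed under other settings, 100 were within 1.5 times of those reported and 10 were not. At a −log10 q of at least 10, no member had a peak in either list: the counts of members with a peak, with a peak at the start and wholly inside 1 peak were all 0 in CM and 0 with romidepsin, against 0.28% and 0.69% of all genes with a peak. With the q threshold at 5 on that scale, 68 and 71 members kept a peak (84.0% and 87.7%, against 32.4% and 49.8% of all genes). Merging peaks closer than 1 kb gave a median romidepsin length of 12991 bp and a median ratio of 6.06, against 7429 bp and 5.20 over all genes. Counting covered bases of the window in place of the longest peak gave 4876.5 bp with romidepsin, against 5832 bp over all genes, which turned the order of members and all genes, and the windows of the members are smaller. A tract within 20 bases of the start was found in 49 promoters. The autosomal subset and the 8-letter motif centres were chosen after seeing the data. No paired analysis was possible because each condition has 1 library. Depth limits every length and count here and is unknown.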
